A study of Homo sapiens with 16 samples.

Results

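Of the 116577 circular RNA (circRNA) entries in the deposited table, 1055 had a value above 0 in every one of the 16 libraries. The 16 of these that belonged to 2 runs of entries which dominate the EV libraries (17 entries listed in the rule) were left out. This left 1039 entries, 0.891% of the table. Entries with equal values in all 16 libraries were kept once, which gave the 929 circRNA entries described here, called shared entries. They were chosen by their own values, so that they were detected in every library is not a result. The levels below are in units, where 1 unit is a millionth of the reads summed over the 1039 entries in that library.

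The libraries hold small RNA of PC3, an established line of prostate cancer cells, and of MDA-MB-231 (labelled MDA-231), one of breast cancer cells, both labelled as wild type and untreated. For each line there were 4 groups of 2 libraries, which makes 8 groups. These were the cells themselves and extracellular vesicles (EVs) from their conditioned medium, isolated by next-gen ATPS, by ultracentrifugation (UC) or with the Qiagen exoRNeasy kit. Per the paper's methods, donor cells were starved without serum before the conditioned medium was collected. The methods do not state whether the RNA of the cells came from starved cultures. In next-gen ATPS, EVs collect in a dextran-rich phase and dextranase then digests the dextran. RNA of the cells, the next-gen ATPS EVs and the UC EVs was extracted with TRIzol, while the exoRNeasy kit uses its own column, so isolation and extraction cannot be told apart in that comparison. No source used here states that both libraries of a group were grown as separate cultures. The p-values therefore rest on a spread that may be technical. Messenger RNA markers of prostate or breast epithelium were not analysed here.

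A circRNA is an RNA whose ends are joined by back-splicing of an exon or exons, and the hsa_circ names are catalogue numbers for such loops. Because a loop spans exons and sometimes the introns between them, its interval in the genome can hold other small RNA genes. Many of these are small nucleolar RNAs (snoRNAs), which in vertebrates mostly lie in introns of protein-coding genes or of long noncoding host genes. C/D box snoRNAs (SNORD) mostly guide methylation of ribosomal RNA. Their ends can pair in a short stem, and a C box (TGATGA in its commonest DNA form) and a D box (CTGA) lie just inside it. H/ACA box snoRNAs (SNORA) guide the change of uridine to pseudouridine. A short read that lies inside a loop and does not cross its junction cannot be told from a read of the linear or small RNA at the same place.

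The read numbers of many shared entries were those of snoRNAs. Of the 929, 76 had, in all 16 libraries, the same number of reads within 5% as 1 entry of the snoRNA table, and 0 matched an entry of the miRNA table. When reads were summed over runs of neighbouring snoRNAs in 1 host gene, a step added after these values had been seen, 164 matched. These 164 matched 107 snoRNAs, 90 of them SNORD and 17 SNORA. At a tolerance of 1% there were 68 such entries and at 20% there were 316. The sequences of 8 of these snoRNAs are printed here, from the hg38 genome at the GENCODE v44 position of the gene and on its own strand, because the entries named beside them carry their read numbers. Capitals mark TGATGA within the first 20 bases and CTGA within the last 15 bases.
SNORD49A: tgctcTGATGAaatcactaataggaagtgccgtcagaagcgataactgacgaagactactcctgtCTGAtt
SNORD2: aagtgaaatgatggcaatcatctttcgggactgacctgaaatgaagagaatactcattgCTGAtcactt
SNORD59A: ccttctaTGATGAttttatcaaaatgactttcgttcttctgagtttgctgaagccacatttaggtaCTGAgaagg
SNORD88C: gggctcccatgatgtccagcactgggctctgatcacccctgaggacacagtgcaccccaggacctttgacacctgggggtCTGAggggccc
SNORD27: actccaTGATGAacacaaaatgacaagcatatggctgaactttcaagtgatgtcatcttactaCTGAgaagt
SNORD26: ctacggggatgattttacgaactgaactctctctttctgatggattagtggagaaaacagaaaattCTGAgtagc
SNORD25: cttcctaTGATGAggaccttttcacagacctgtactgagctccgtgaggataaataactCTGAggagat
SNORD116-14: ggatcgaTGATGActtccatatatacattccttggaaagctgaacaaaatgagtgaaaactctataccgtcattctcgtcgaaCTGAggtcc

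SNORD49A lies at chr17:16440036-16440106 in SNHG29, a long noncoding host gene. SNORD2 lies at chr3:186784796-186784864 in EIF4A2, which encodes a translation initiation factor, and SNORD59A at chr12:56645027-56645101 in ATP5F1B, which encodes a subunit of ATP synthase. SNORD88C is at chr19:50802328-50802418. SNORD27, SNORD26 and SNORD25 follow each other in SNHG1 at chr11:62855012-62855083, chr11:62855292-62855366 and chr11:62855564-62855632, and SNORD116-14 is at chr15:25080142-25080233 in SNHG14. Of the 90 matched SNORD, 69 held TGATGA in the first 20 bases, 86 held CTGA in the last 15 and 67 held both, with lengths of 64 to 111 bases. Of the 17 matched SNORA, 0 held TGATGA and 1 held CTGA in these windows. Such a match of letters is a description of the sequence.

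For 1 entry, hsa_circ_0052032, the read numbers equalled those of SNORD88C in all 16 libraries. It had 31391 and 87283 reads in PC3 cells and 11044 and 57 in MDA-MB-231 cells. In the EV libraries of PC3 it had 191 and 208 reads (next-gen ATPS), 716 and 512 (UC) and 218 and 216 (exoRNeasy), and in those of MDA-MB-231 it had 641 and 318, 1528 and 961, and 310 and 168. The entry hsa_circ_0098839 and SNORD59A differed by at most 0.0012% in any library, hsa_circ_0068456 and SNORD2 by at most 0.0173%, and hsa_circ_0042200 and SNORD49A by at most 0.302%. The cell and EV libraries all lay on the line of equal numbers for these entries, from the shallowest to the deepest.

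**Figure D1:**
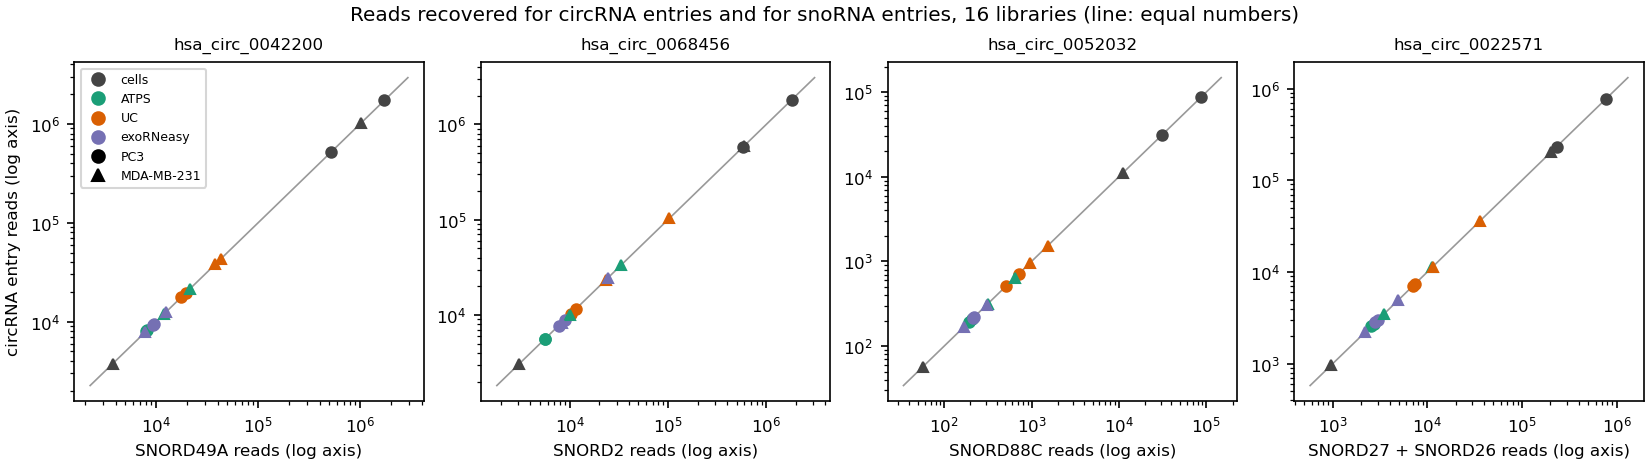
Reads recovered for 4 shared circRNA entries (vertical, log axis) against reads recovered for the snoRNA named under each panel (horizontal, log axis), 1 point per library, with circles for PC3 and triangles for MDA-MB-231 and the line marking equal numbers. The 16 points of each panel lie on the line, and for hsa_circ_0052032 they are equal, from 57 reads in MDA-MB-231 cells replicate 2 to 87283 in PC3 cells replicate 2.

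For the snoRNAs of SNHG1, entries differed by which of them they added up. The entry hsa_circ_0022570 had 24115 reads in PC3 cells replicate 1, the number of SNORD27. The entry hsa_circ_0022571 had 232224 reads in the same library, where SNORD27 and SNORD26 together had 232221. The entry hsa_circ_0022568 had 270634, where SNORD28, SNORD27, SNORD26 and SNORD25 together had 270627. The read numbers were nested, so these entries are not separate observations. The same held elsewhere, with 6 entries on the run of SNORD21 and SNORA66 in RPL5 and 8 on SNORD41 in TNPO2.

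The hosts named here are those of the matched snoRNAs, because the positions of the circRNA entries were not used. There were 35 host genes. Of the 164 entries, 122 matched snoRNAs with a protein-coding host, 41 with a long noncoding host and 1 with no host gene. In this sense SNHG14, the imprinted noncoding host of the SNORD116 copies, held 21 entries. WDR43, a ribosome biogenesis factor, held 16, SF3B3, a splicing factor, held 9, and AP1G1, RPL5, SNHG1 and TNPO2 held 8 each. The SNORD116 copies are near-identical, and SNORD116-17 and SNORD116-19 have the same sequence. A read can therefore be counted at more than 1 copy. Sums over copies need not be distinct reads, and the value of 1 copy is uncertain.

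Sharing of reads was not limited to the matched entries. Before merging, 78 sets of entries had equal values in all 16 libraries and held 188 entries, the largest with 10 (hsa_circ_0034122 to hsa_circ_0034131). After merging, 701 of the 929 entries lay within 0.25 (log2) of the profile of at least 1 other entry in every library, in 178 linked groups of up to 21 entries, and 228 entries stood alone. The 929 entries thus held 406 profiles. Of 9 entries of circRNAs with a name in the literature, 0 were shared entries. circITCH was above 0 in 12 libraries with 37 reads over all 16, the most of the 9, and CDR1as, a circRNA known for its many miR-7 sites, in 8 with 32 reads.

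The depth behind the values differed widely. The reads summed over the 1039 entries before merging, which need not be distinct reads, came to 107125 in MDA-MB-231 cells replicate 2 and to 7853557 to 62305594 in the other libraries. In that library 1 read was worth 9.335 units, against 0.01605 to 0.1273 units elsewhere. Most of the rule turned on it, because 805 of the 929 had their fewest reads there, and 268 of the 302 entries with a single read in some library had it there. Of 3511 entries above 0 in 15 libraries, 3422 were at 0 in this one. These 302 lay just inside the rule, and the first 3 by entry number were hsa_circ_0000400, hsa_circ_0001241 and hsa_circ_0001242. Just outside was hsa_circ_0060058, with 10294 and 10458 reads in exoRNeasy EVs of PC3 and 0 in MDA-MB-231 cells replicate 2. An entry with at least 10 reads in every library was less dependent on it, and 359 of the 929 were of this kind.

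That library also stood apart in its profile. Across the 929 entries, which are not independent of each other, the log2 levels of the other 3 cell libraries correlated with r of 0.914 to 0.997 and those of the 12 EV libraries with r of 0.838 to 0.993, while EVs and these cells gave r of 0.165 to 0.430. MDA-MB-231 cells replicate 2 gave r of 0.780 to 0.831 with the other cells and 0.495 to 0.609 with EVs. This intermediate profile went with the lowest depth, and the part of depth in it was not tested. Some values that moved by over 1.5 times without it are also given without it, where the lone MDA-MB-231 cell library is assumed to vary like the other groups. Several of the smaller counts of 1 direction in comparisons between EV groups moved as much and are given with it only. Replicates differed by a median of 0.157 to 0.286 (log2) in PC3 groups and 0.628 to 0.968 in MDA-MB-231 groups.

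The share of all circRNA values held by the shared entries was set by the rule, because the left-out runs were named for dominating EVs, and it is given as a description with no test. It counts all 1039 entries before merging. It was 91.6% in both PC3 cell libraries and 91.3% in MDA-MB-231 cells replicate 1, but 41.1% in replicate 2, and in EVs it was 5.24% to 7.69% for PC3 and 9.15% to 16.2% for MDA-MB-231. The left-out runs held nearly all of the rest, with 83.6% to 94.6% in EVs, 6.63% to 7.82% in 3 cell libraries and 58.6% in MDA-MB-231 cells replicate 2. With the runs removed, the shared entries made up 96.5% to 99.4% of what remained in every library. Their mean was then 0.944 points lower in EVs than in cells.

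Within the shared entries, the signal in EVs sat in few entries. Counted over the 1039 entries before merging, the 10 highest of a library held 25.6% to 29.8% of the sum in cells. In EVs they held 48.5% to 69.1%, without overlap. The mean was 63.8% in EVs and 27.0% in cells, a difference of 36.9 points (exact permutation test of the labels within lines, two-sided, p = 0.00128, the smallest that its 784 arrangements can give, adjusted over 10 tests of shares p = 0.00638). Over the 929 entries after merging, the 10 highest held 26.5% to 30.9% in cells and 49.2% to 72.7% in EVs. It took 21 to 27 of the 929 to reach 50% of their sum in cells and 3 to 11 in EVs. Linked entries with nearly equal levels, such as hsa_circ_0073681 and hsa_circ_0073682, were counted separately in these values. Neither the shares nor the test was computed once per linked profile. For the share of the 10 highest before merging, no comparison of methods could pass the threshold of 0.05. Their exact permutation tests have 36 arrangements, and the smallest p allowed is 0.0556. The comparison of lines could pass but did not (exact permutation test within materials, p = 0.542). The 164 entries with snoRNA read numbers held 33.3% to 41.7% of the shared sum in 3 cell libraries and 30.7% in MDA-MB-231 cells replicate 2, against 0.332% to 4.17% in EVs. In EVs of each line that matched share was highest in the UC libraries.

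**Figure D2:**
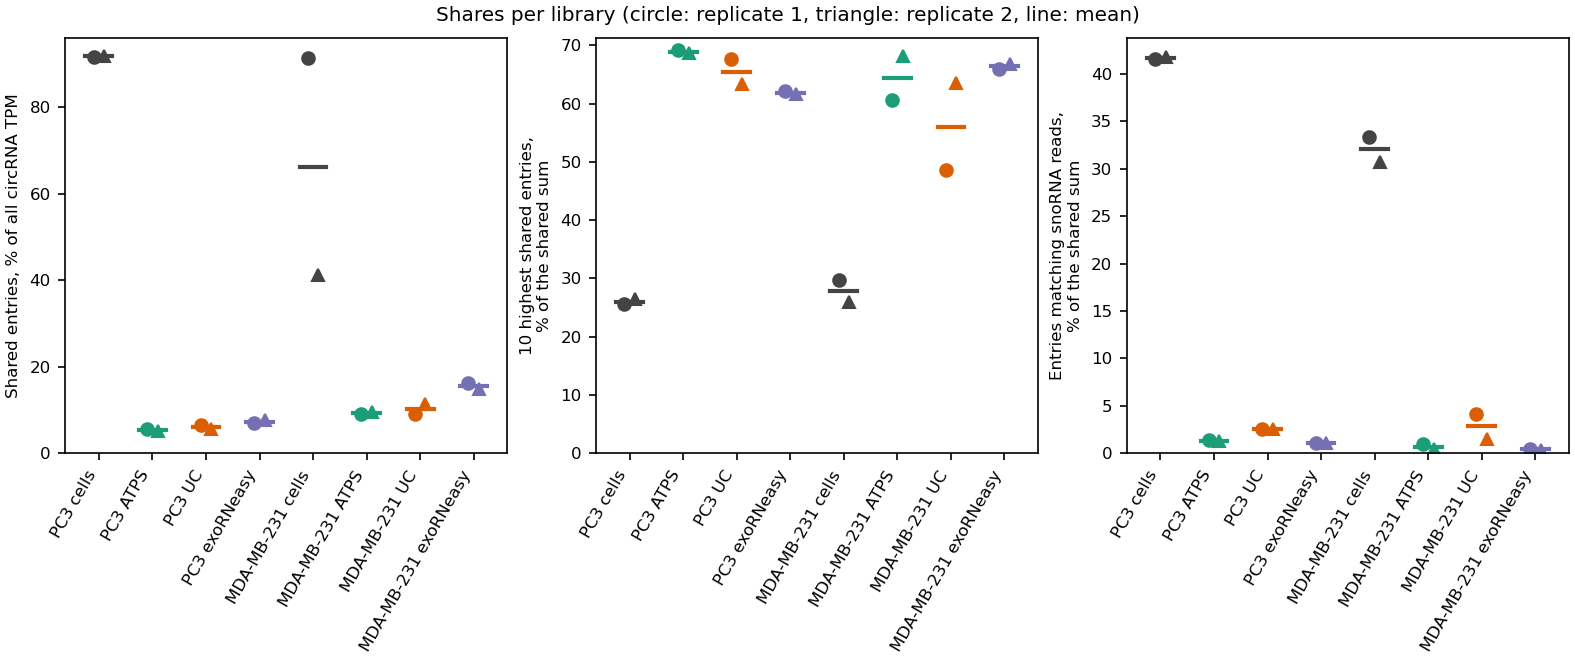
Shares per library in percent for the 8 groups, with a circle for replicate 1, a triangle for replicate 2 and a line for their mean. Left, the 1039 entries before merging as a share of all circRNA values, which the left-out runs set. There 3 cell libraries lie at 91.3% to 91.6%, MDA-MB-231 cells replicate 2 at 41.1% and EVs at 5.24% to 16.2%. Middle, the 10 highest of these 1039 entries as a share of their sum. Right, entries with snoRNA read numbers as a share of the shared sum, at 30.7% or more in cells and 4.17% or less in EVs.

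Entries were compared with limma on log2(units + 1), fitted to all 1511 rows of the circRNA table that reached 10 units in at least 2 libraries, with Benjamini-Hochberg adjustment over these rows and a threshold of 0.05. Of the 929 entries 834 were tested and 95 were too low. An entry that passed this filter through the group in which it was high had to differ, so the counts are descriptions. Because 701 entries were linked to others, the counts do not stand for that many separate RNAs.

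In PC3, 784 of 834 entries (94.0%) differed between EVs and cells, against 92.9% of all rows tested, which is near the background. Of them 268 (32.1%, background 48.5%) were higher in EVs and 516 (61.9%, background 44.4%) were lower. In MDA-MB-231, 732 (87.8%, background 85.8%) differed, 228 (27.3%, background 50.2%) higher and 504 (60.4%, background 35.6%) lower. The median log2 fold change of the tested entries was -2.77 in both lines, against 0.77 over all rows in PC3 and 0.64 in MDA-MB-231. Counted once per linked profile, 104 of 322 profiles were higher and 188 lower in PC3 EVs, and 88 and 191 in MDA-MB-231 EVs. Under all 3 scalings tried (units, values as deposited, and the median log ratio of the shared entries) 145 entries were higher and 424 lower in PC3 EVs, and 81 and 360 in MDA-MB-231 EVs. The excess of lower entries depended on the scaling. The median log ratio alone gave 346 higher and 424 lower in PC3 EVs and 361 and 360 in MDA-MB-231 EVs, and DESeq2 gave 386 and 387, and 366 and 373. Without MDA-MB-231 cells replicate 2 there were 255 higher and 495 lower in MDA-MB-231 EVs.

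Without any filter, 136 of the 929 entries had every EV library above every cell library and 424 had every EV library below every cell library. Without MDA-MB-231 cells replicate 2 these were 199 and 445. Entries with snoRNA read numbers gave 0 and 133 of 164, and 0 and 135 without that library. These counts were made for the shared entries only, so the share over all rows is not known. They are descriptions.

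The fit used the same values and gave the same split. A match had to hold in the EV libraries too, so an entry with many further reads there counted as unmatched. Of the 164 entries with snoRNA read numbers, 161 were lower and 0 higher in PC3 EVs, with a median log2 fold change of -4.89, and 140 were lower and 0 higher in MDA-MB-231 EVs, with a median of -5.13. Without MDA-MB-231 cells replicate 2 there were 138 lower and 20 higher in MDA-MB-231 EVs, the 20 all being entries of SNHG14. Of the 670 other entries tested, 268 were higher and 355 lower in PC3 EVs, and 228 and 364 in MDA-MB-231 EVs. With the median log ratio as scaling, 3 matched entries were higher and 155 lower in PC3 EVs, and 26 and 133 in MDA-MB-231 EVs. The snoRNA table holds the same read numbers, and whether a circular form gave any of these reads was not tested.

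**Figure D3:**
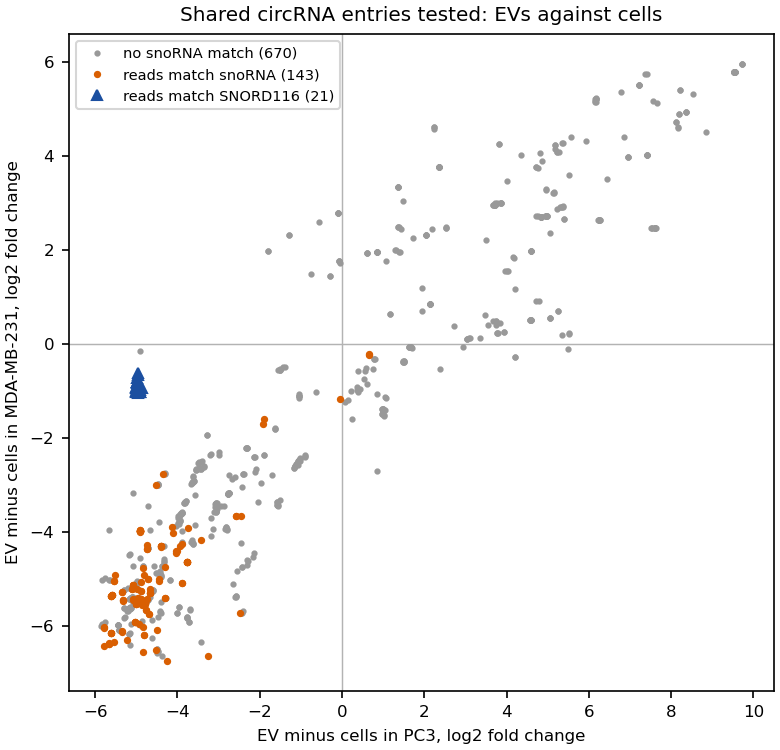
Log2 fold change of EVs against cells in PC3 (horizontal) and in MDA-MB-231 (vertical) for the 834 entries tested, 1 point per entry. Entries with snoRNA read numbers (orange, 143) lie mostly at the lower left. The 21 with SNORD116 read numbers (blue triangles) had log2 fold changes of -5.00 to -4.87 in PC3 and -1.04 to -0.62 in MDA-MB-231, which turn above 0 with another scaling or without MDA-MB-231 cells replicate 2, and every entry at the upper right is among the 670 without a match (grey).

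The entries with the highest levels were EV entries without a snoRNA match. hsa_circ_0070447 had 513 and 594 units in PC3 cells and 333557 and 355154 in next-gen ATPS, 320334 and 268960 in UC and 157403 and 165931 in exoRNeasy EVs of PC3. In MDA-MB-231 it had 989 and 17092 units in cells and 90440 and 116722, 59331 and 122159, and 89425 and 94799 units in the EVs in the same order. Every EV library was above every cell library, and the second MDA-MB-231 cell library lay between. The log2 fold change of EVs against cells was 8.84 ± 0.88 (SE, adjusted p = 2.49e-06) in PC3 and 4.50 ± 0.88 (adjusted p = 0.000629) in MDA-MB-231, and 6.56 without MDA-MB-231 cells replicate 2.

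The pair hsa_circ_0073681 and hsa_circ_0073682, with the same profile, had 127 and 110 units in PC3 cells and 23630 to 48524 in PC3 EVs. In MDA-MB-231 the pair had 246 and 13732 units in cells and 47802 to 101295 in EVs. In log2 terms EVs exceeded cells by 8.21 ± 1.12 (adjusted p = 3.49e-05) in PC3 and 5.40 ± 1.12 (adjusted p = 0.000939) in MDA-MB-231, the latter 8.30 without MDA-MB-231 cells replicate 2. EVs and cells did not overlap in either line.

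The 3 linked entries hsa_circ_0017177, hsa_circ_0017176 and hsa_circ_0112698 showed the largest rise of the named entries. hsa_circ_0017177 had 72.2 and 66.0 units in PC3 cells, and 50773 and 46905 in next-gen ATPS, 35303 and 44278 in UC and 109630 and 101643 in exoRNeasy EVs. In MDA-MB-231 it had 90.0 and 5078 units in cells and 25879 to 53208 in EVs. Its log2 fold change was 9.71 ± 1.12 (adjusted p = 9.31e-06) in PC3. In MDA-MB-231 it was 5.96 ± 1.12 (adjusted p = 0.000494), and 8.86 without cells replicate 2.

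hsa_circ_0013829 had 326 and 299 units in PC3 cells and 23446 to 57100 in PC3 EVs, and 298 and 4677 in MDA-MB-231 cells and 28949 to 66275 in their EVs. EVs against cells gave a log2 fold change of 6.78 ± 0.81 in PC3 and 5.35 ± 0.81 in MDA-MB-231 (adjusted p = 1.08e-05 and 8.83e-05), the latter 7.34 without MDA-MB-231 cells replicate 2. The linked entries hsa_circ_0015988, hsa_circ_0015991 and hsa_circ_0015993 had 61.0 to 73.8 units in PC3 cells, 9349 to 10981 in PC3 EVs and 14453 to 40163 in MDA-MB-231 EVs. In each of these entries the second MDA-MB-231 cell library was over 10-fold above the first and under the EV libraries.

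Entries with SNORD2 and SNORD49A read numbers ran the other way. hsa_circ_0068456 (SNORD2) had 28346 and 29242 units in PC3 cells and 26721 and 28322 in MDA-MB-231 cells. It had 714 and 693 units in next-gen ATPS, 1045 and 1008 in UC and 874 and 732 in exoRNeasy EVs of PC3, and 917 and 279, 4610 and 855, and 567 and 270 units in those of MDA-MB-231. The 4 cell libraries stood together and above all EVs, and the second MDA-MB-231 cell library did not stand apart here. The log2 fold change was -5.11 ± 0.62 in PC3 and -5.23 ± 0.62 in MDA-MB-231 (adjusted p = 1.37e-05 and 1.30e-05).

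hsa_circ_0042200 (SNORD49A) had 25095 and 27807 units in PC3 cells and 897 to 1769 in PC3 EVs, and 45638 and 35155 in MDA-MB-231 cells and 253 to 1911 in their EVs. The log2 fold change was -4.50 ± 0.32 in PC3 (adjusted p = 1.57e-07) and -6.10 ± 0.32 in MDA-MB-231 (adjusted p = 1.75e-08), and the difference between the lines was -1.60 ± 0.46 (adjusted p = 0.0167). hsa_circ_0006995 (SNORD63, in HSPA9, which encodes a mitochondrial chaperone) had 6789 to 7851 units in the 4 cell libraries and 46.7 to 379 in EVs. Among entries with at least 10 reads in every library, the largest fall in MDA-MB-231 EVs was that of hsa_circ_0047664, with the reads of SNORD58A and SNORD58B in RPL17, a ribosomal protein gene. It had 7113 and 6460 units in MDA-MB-231 cells and 32.3 to 176 in their EVs, a log2 fold change of -6.75 ± 0.24 (adjusted p = 1.79e-09). hsa_circ_0092282 (SNORD99) followed with -6.64 ± 0.31, from 1459 and 1512 units in cells to 6.17 to 52.0 in EVs.

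A fall in EVs was not limited to matched entries. hsa_circ_0053025, which matched no snoRNA, had 194 and 175 units in PC3 cells and 1.53 to 3.43 in PC3 EVs, and 96.0 and 159 in MDA-MB-231 cells and 0.487 to 1.42 in their EVs. EVs against cells gave a log2 fold change of -5.86 in PC3 and -6.00 in MDA-MB-231. On the scale of log2(units + 1) this understates the change at such low levels. The entry reached 10 units only in cells, so the filter fixed that it differed and its fall is a description.

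**Figure D4:**
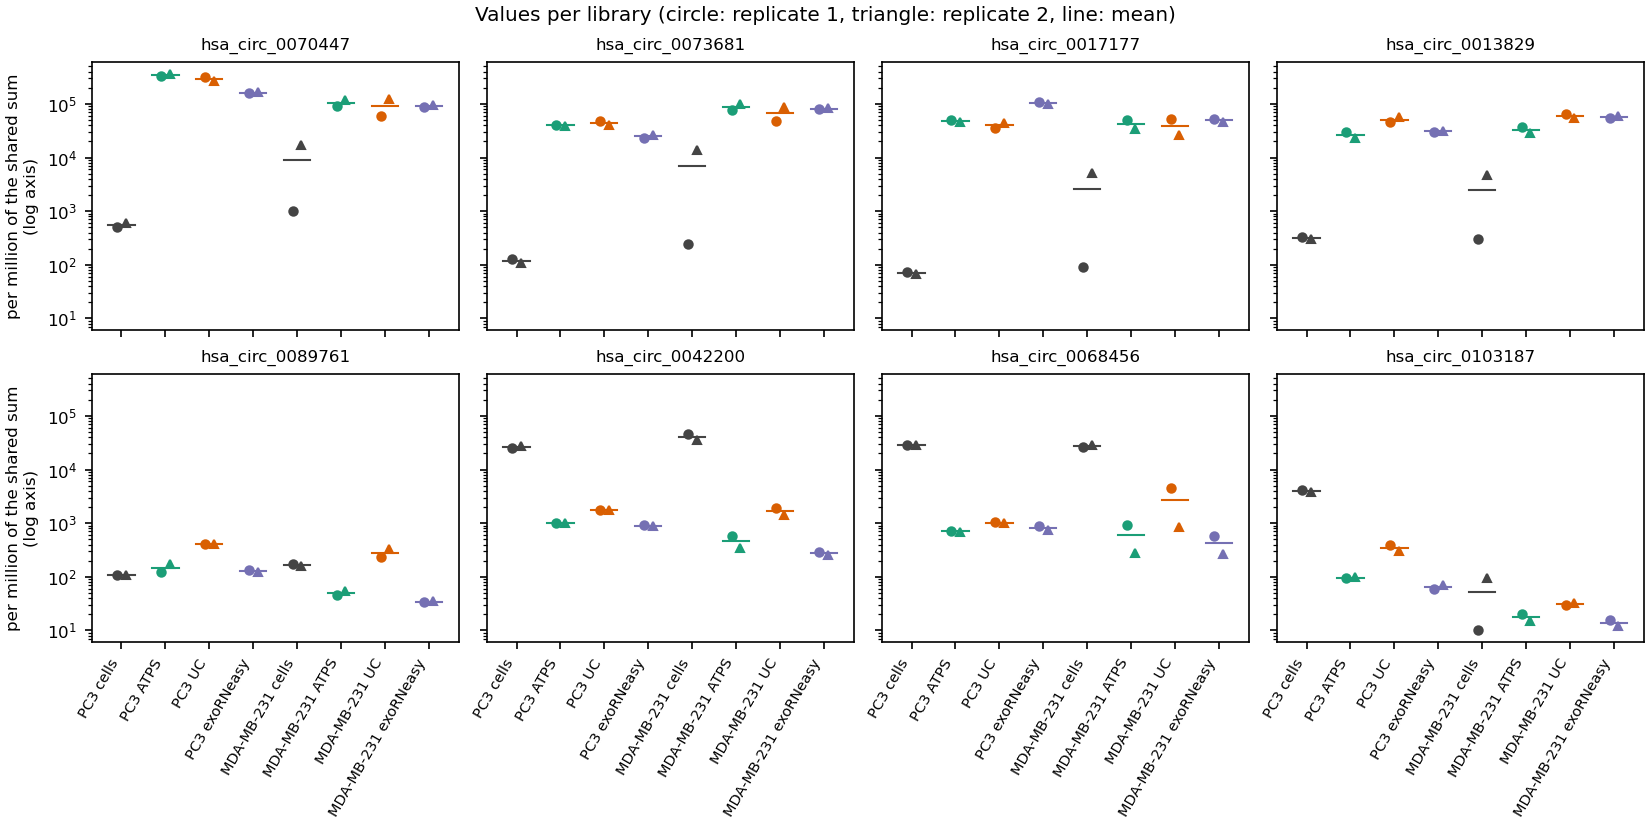
Units per library (log axis) for 8 entries in the 8 groups, with a circle for replicate 1, a triangle for replicate 2 and a line for their mean. In the upper row EVs lie far above cells and MDA-MB-231 cells replicate 2 lies between. In the lower row hsa_circ_0089761 varies between 33.7 and 417 units, hsa_circ_0042200 and hsa_circ_0068456 are highest in the cells of both lines, and hsa_circ_0103187 is highest in PC3 cells.

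Grouped by host gene of the matched snoRNAs, the entries of SF3B3, AP1G1, RPL5, SNHG1, TNPO2 and WDR43 were lower in EVs without exception in both lines. The 8 entries of RPL5, a ribosomal protein gene, had log2 fold changes of -4.31 to -3.77 in PC3 and -5.41 to -4.65 in MDA-MB-231. The 7 of NCL, which encodes nucleolin, spread more widely, with 5 lower in each line and a range of -5.33 to 0.67 in PC3. These counts repeat the same reads, since the read numbers of entries with 1 host overlap.

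The 21 entries of SNHG14 with SNORD116 read numbers differed between the lines. The reads of hsa_circ_0103187 were within 5% of the sum of 26 SNORD116 copies. The entry had 4173 and 3894 units in PC3 cells and 10.3 and 93.3 in MDA-MB-231 cells, where 93.3 units are 10 reads. These 10 need not be distinct, since a read can fit several copies. SNORD116-14 alone had 2 reads in MDA-MB-231 cells replicate 2. The entry met the rule of at least 10 reads in every library through this sum. It had 58.5 to 387 units in PC3 EVs and 12.3 to 31.8 in MDA-MB-231 EVs. It was therefore highest in PC3 cells, and its PC3 and MDA-MB-231 EV libraries did not overlap. In cells the log2 fold change of MDA-MB-231 against PC3 was -6.95 ± 0.73 (adjusted p = 3.81e-05), and -8.48 without MDA-MB-231 cells replicate 2. In EVs it was -2.65 ± 0.42 (adjusted p = 0.000316).

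All 21 were lower in MDA-MB-231 than in PC3 cells, with log2 fold changes of -6.95 to -6.05. All 21 were lower in EVs than in cells in PC3 (-5.00 to -4.87), and 0 passed the threshold in MDA-MB-231 (-1.04 to -0.62). The difference between the lines, tested as an interaction, was 3.88 to 4.34 and passed the threshold in all 21. The interaction also passed in all 21 under both other scalings, by edgeR, by DESeq2 and without MDA-MB-231 cells replicate 2, where it was 5.38 to 5.88. The change within MDA-MB-231 did not keep its direction. Without that library 20 of the 21 were higher in EVs than in cells (0.49 to 0.88), with the median log ratio all 21 were higher (0.99 to 2.29), and with the values as deposited all 21 were lower (-2.77 to -1.71). SNORD116 is an imprinted cluster expressed from the paternal chromosome and is known for its loss in Prader-Willi syndrome. The 21 entries carry overlapping read numbers of this 1 snoRNA cluster and count as 1 observation.

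Over the tested entries, 248 (29.7%, background 28.7%) differed between the cells of the lines, 154 (18.5%, background 10.9%) higher and 94 (11.3%, background 17.7%) lower in MDA-MB-231. The direction depended on the scaling. The values as deposited gave 121 higher and 169 lower, the median log ratio gave 64 and 142, and under all 3 there were 54 and 94. Without MDA-MB-231 cells replicate 2 there were 126 higher and 99 lower. hsa_circ_0063378 had 23.7 and 25.9 units in PC3 cells and 301 and 327 in MDA-MB-231 cells, a log2 fold change of 3.61 ± 0.38 (adjusted p = 3.62e-05). Its nearest snoRNA in read numbers was SNORD83A, outside the 5% tolerance. hsa_circ_0092282 (SNORD99) was higher in MDA-MB-231 cells by 2.76 ± 0.38 and the 16 entries of WDR43 were lower, by 2.19 to 2.48 on the log2 scale.

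Between the EVs of the lines, 406 entries (48.7%, background 55.1%) differed, 58 (6.95%, background 12.4%) higher and 348 (41.7%, background 42.8%) lower in MDA-MB-231. The direction depended on the scaling. The values as deposited gave 135 higher and 78 lower, the median log ratio gave 227 and 188, and under all 3 there were 54 and 78. hsa_circ_0137046 had 88.2 to 326 units in PC3 EVs and 165 to 3075 in MDA-MB-231 EVs, with a log2 fold change of 2.18 ± 0.39 (adjusted p = 0.000733). The ranges overlapped over all methods but not within 1 method.

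The change from cells to EVs differed between the lines in 270 entries (32.4%, background 42.6%), with 40 (4.80%, background 14.4%) more positive and 230 (27.6%, background 28.3%) more negative in MDA-MB-231. The values as deposited gave 171 and 124, the median log ratio gave 180 and 112, and under all 3 scalings there were 40 and 79. For hsa_circ_0070447 the difference was -4.34 ± 1.25 (adjusted p = 0.0176), and -2.29 without MDA-MB-231 cells replicate 2. hsa_circ_0090882 had 28.9 and 33.8 units in PC3 cells and 79.3 to 1689 in PC3 EVs, but 289 and 367 in MDA-MB-231 cells and 52.7 to 2539 in their EVs, and its difference was -3.68 ± 0.65 (adjusted p = 0.00111).

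The comparisons of isolation methods share libraries with each other and turned with the scaling. In units, 585 entries (70.1%, background 58.4%) differed between next-gen ATPS and UC EVs, 2 (0.24%, background 1.59%) higher and 583 (69.9%, background 56.8%) lower in next-gen ATPS. The values as deposited gave 2 and 378, but the median log ratio gave 184 higher and 50 lower, and the sign of 333 of the 585 turned. Under all 3 scalings 2 were higher and 40 lower. hsa_circ_0130034 had 90.9 and 108 units in next-gen ATPS and 318 and 337 in UC EVs of PC3, and 27.7 and 30.8 against 196 and 281 in MDA-MB-231. The log2 fold change of -2.34 ± 0.18 (adjusted p = 5.89e-06) became -0.62 (adjusted p = 0.163) with the median log ratio. hsa_circ_0051893 gave -2.12 ± 0.35 in units and -0.48 (adjusted p = 0.0773) with the median log ratio.

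Between UC and exoRNeasy EVs 632 entries (75.8%, background 66.6%) differed, 627 (75.2%, background 61.7%) higher and 5 (0.60%, background 4.83%) lower in UC. With the median log ratio 154 were higher and 353 lower, and under all 3 scalings 135 were higher and 5 lower. hsa_circ_0090882 was higher in UC under all 3 scalings. It had 1689 and 1580 units in UC and 111 and 79.3 in exoRNeasy EVs of PC3, and 2539 and 1559 against 162 and 52.7 in MDA-MB-231, without overlap in either line, with a log2 fold change of 4.26 ± 0.40 (adjusted p = 5.39e-06).

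Between next-gen ATPS and exoRNeasy EVs 163 entries (19.5%, background 26.2%) differed, 144 (17.3%, background 19.1%) higher and 19 (2.28%, background 7.15%) lower in next-gen ATPS. The values as deposited gave 49 and 28, the median log ratio gave 115 and 92, DESeq2 gave 109 and 120, and under all 3 scalings there were 49 and 18. hsa_circ_0100788 had 382 and 332 units in next-gen ATPS and 39.1 and 58.3 in exoRNeasy EVs of PC3, and 641 and 937 against 47.2 and 62.8 in MDA-MB-231. Its log2 fold change was 3.34 ± 0.85 (adjusted p = 0.0154), and it missed the threshold with no filter on low values (adjusted p = 0.0677) and without PC3 exoRNeasy replicate 1 (adjusted p = 0.0519). Of the 164 entries with snoRNA read numbers, 0 passed the threshold here by limma, with log2 fold changes of -0.61 to 1.24, and 5 were higher without MDA-MB-231 cells replicate 2. With the median log ratio 8 were lower and 0 higher, and by DESeq2 18 were lower and 1 higher.

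**Figure D5:**
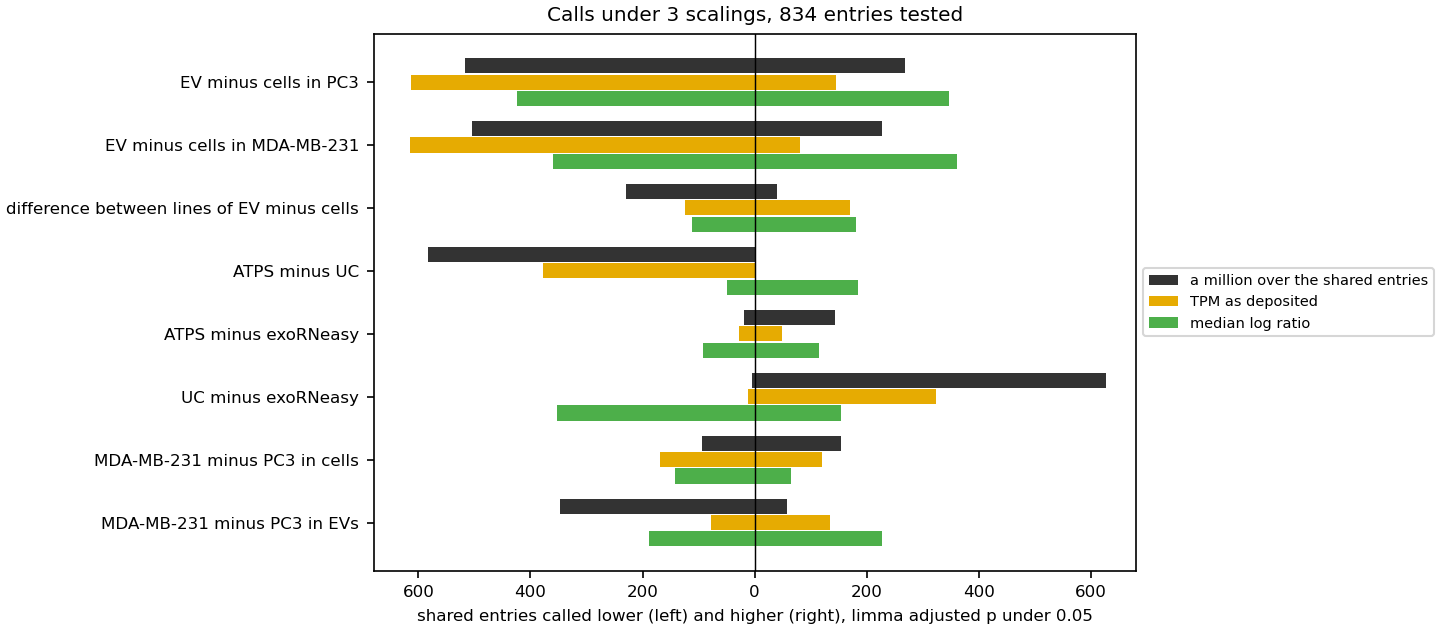
Number of shared entries called lower (left of 0) and higher (right of 0) in 8 comparisons, out of 834 tested, for 3 scalings of the same values. The bars of EVs against cells reach farther left than right in PC3 under each scaling, while those of next-gen ATPS against UC and of UC against exoRNeasy turn to the other side with the median log ratio.

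The steadiest of the entries with at least 10 reads in every library was hsa_circ_0089761, chosen for its small spread, which is a description. It had 107 and 109 units in PC3 cells, 159 and 174 in MDA-MB-231 cells, 121 to 417 in PC3 EVs and 33.7 to 328 in MDA-MB-231 EVs. Its UC libraries, with 408 and 417 units in PC3 and 235 and 328 in MDA-MB-231, were the highest of each line. The linked entries hsa_circ_0122396, hsa_circ_0122395, hsa_circ_0122391 and hsa_circ_0067736 came next and had 219 to 433 units in cells and 471 to 3205 in EVs.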

How the data were processed

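Small RNA libraries of 16 samples were analysed, in 8 groups of 2 taken from the sample labels. The label VC was taken to mean UC, the method left over once the others had been assigned. Every one of the 16 columns of each table was matched to a library by name, and 0 columns were left unused. Per the paper's methods, the authors removed low-quality bases, kept short reads, ran STAR against hg38 (the notes of the submitters name these as well), assigned reads with COMPSRA and converted them to TPM within each RNA class. The versions were not given in the sources used. The values deposited by the authors as TPM are CPM over the reads of 1 RNA class, without a length term, because 100% of the circRNA and snoRNA values and 99.98% of the miRNA values above 0 came to a whole number of reads, with a tolerance of 0.1 read. The tests were planned for TPM and kept for CPM. Read numbers recovered in this way were compared between the circRNA, snoRNA and miRNA tables. Of the 413 snoRNA names 379 were placed by GENCODE v44, and 2673 runs of neighbouring snoRNAs in 1 host gene were tried. Coordinates of the circRNA entries were not used here, so their own sequences and host genes are not given.

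Values were rescaled to units (CPM over the 1039 entries) and tested with limma 3.58.1 (trend and robust options) on log2(value + 1), with 1 mean for each of the 8 groups, over rows at 10 or more in at least 2 libraries. EV groups and, for methods, the lines had equal weight. Shares per library were compared with exact permutation tests within lines or materials, 10 tests adjusted together, but those of the share of all circRNA values are not reported, since the rule set that share. A simulation with independent rows and 1 spread for all libraries was also run. It does not cover the linked rows or the unequal replicates of these data, and no result here rests on it. edgeR 4.0.16 and DESeq2 1.42.0 on the recovered reads, other scalings, filters and member rules, a replicate block and leaving out each library were the alternatives. The members, the gene lists and the tests were chosen with earlier results of these data known. The named entries were the 10 highest by mean, at most 2 higher and 2 lower per comparison with at least 10 reads in every library and a uniform direction within lines or materials, the 5 steadiest, 5 that matched a snoRNA, and the 3 with the fewest reads, by entry number among the 302 with 1 read. The snoRNA sequences, SNHG1, RPL5 and other host gene examples, hsa_circ_0052032 and hsa_circ_0098839 were picked after their values were seen.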

Additional observations from a re-analysis of the deposited data

Results flagged for a closer look

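The change from cells to EVs, tested as an interaction with limma, differed between PC3 and MDA-MB-231 in 270 of the 834 shared entries tested, where 42.6% of all 1511 rows did. Among the named entries, hsa_circ_0103187 (4.30, adjusted p = 0.0021) and hsa_circ_0034116 (4.24, adjusted p = 0.00304), both with SNORD116 read numbers, changed more positively in MDA-MB-231. hsa_circ_0070447 (-4.34, adjusted p = 0.0176) and hsa_circ_0090882 (-3.68, adjusted p = 0.00111) changed more negatively. All values are log2 differences. Without MDA-MB-231 cells replicate 2 they were 5.83, 5.86, -2.29 and -3.86 in the same order. hsa_circ_0070447 missed the threshold by edgeR (adjusted p = 0.0843), without the filter on low values (adjusted p = 0.268) and without either PC3 cell library (adjusted p = 0.0773 and 0.0651), and hsa_circ_0090882 missed it by edgeR (adjusted p = 0.125).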

How the results depend on the processing

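Of the 26 results on named entries 0 reversed, and 6 lost the threshold in at least 1 alternative (hsa_circ_0070447, hsa_circ_0090882, hsa_circ_0130034, hsa_circ_0051893, hsa_circ_0100788 and hsa_circ_0030395). Of 343 values for counts and shares, 305 kept within 1.5 times the count or within the spread of replicates, 33 moved and 5 reversed. Where a value moved, the cause was not tested. With no filter on low values the calls were 104 for the difference between lines, 72 for next-gen ATPS against exoRNeasy and 138 for cells of the lines. With values as deposited they were 380 for next-gen ATPS against UC, 77 against exoRNeasy, 335 for UC against exoRNeasy and 213 for EVs of the lines, and with the median log ratio 234 for next-gen ATPS against UC. edgeR gave 113 for the difference between lines, 110 and 95 for next-gen ATPS against UC and exoRNeasy, 311 for UC against exoRNeasy and 220 for EVs of the lines. DESeq2 gave 316 for next-gen ATPS against UC and 416 for cells of the lines. Among the 359 entries with 10 or more reads in every library, fewer entries could be called, namely 358 and 345 for EVs against cells in PC3 and MDA-MB-231, 75 for their difference, 293, 28 and 310 for the methods, and 84 and 207 for cells and EVs of the lines. Among the 1290 tested entries above 0 in the 15 other libraries there were 1186, 1112 and 517, then 313 for next-gen ATPS against exoRNeasy, and 389 and 703 for the lines. Leaving out 1 library gave 101 to 229 for next-gen ATPS against exoRNeasy (105 and 101 without PC3 ATPS replicate 1 or 2, 104 without PC3 exoRNeasy replicate 2) and 180 to 439 for cells of the lines (439 without MDA-MB-231 cells replicate 1).

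Without the left-out runs, the difference in the share of the shared entries, which has no test, became 1.50 points for next-gen ATPS against UC (-0.832 with the runs), 0.227 against exoRNeasy (-4.07) and 0.836 for MDA-MB-231 against PC3 (-2.28). The last ran from -8.56 to 3.99 with 1 library left out, the latter without MDA-MB-231 cells replicate 2. For the 10 highest entries before merging, UC against exoRNeasy was -3.41 points and ran from -7.14 to 0.324, the latter without MDA-MB-231 UC replicate 1.

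No source used here states what a replicate number shares between groups. Of 28 pairs of groups, 15 had a correlation of deviations over 0.1, with a range of -0.192 to 0.699. These correlations do not settle whether the number pairs the libraries. With a replicate block the calls were 783 and 730 for EVs against cells, 293 for their difference, 601, 182 and 634 for the methods, and 292 and 439 for cells and EVs of the lines.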
